A study of Homo sapiens with 40 samples.

Results

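Induction of the CASP10 hairpin shCasp10-2 in KMS12 cells was read on 4 of the 40 arrays of the series, those whose titles begin with this line and hairpin, 1 each for days 1, 2, 3 and 4. KMS12 is an established human multiple myeloma line, and shCasp10-2 is a short hairpin RNA against CASP10 carried by a retrovirus and switched on by doxycycline. On each array the Cy5 channel held RNA of cells that had received 20 ng/ml doxycycline, and the Cy3 channel held RNA of uninduced KMS12 cells with the same hairpin from the same day. Both channels therefore came from transduced, puromycin-selected cells. The closest comparison in the series is KMS12 with a second hairpin, shCasp10-3, on 4 arrays for days 2 to 5, and the same hairpin was read in the myeloma line H929 on 8 arrays. The study asked which genes follow the loss of caspase-10 in myeloma cells, with each myeloma and lymphoma line compared with its own uninduced cells. The line SKMM1 was also compared with a control hairpin.

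Caspase-10 is an initiator caspase, a protease that joins death receptor complexes together with FADD, caspase-8 and the regulator cFLIP. In myeloma it is known as a protein that the cells need, and it has been described as a brake on autophagy, the process by which a cell digests its own components in lysosomes. Myeloma cells are malignant plasma cells, and they carry a heavy secretory load that depends on XBP1 and on the folding machinery of the endoplasmic reticulum.

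Each value is a deposited log ratio, read as log2, of induced over uninduced RNA for 1 probe, and probes of 1 gene were averaged. The labels name the dye of each channel. That the ratio is Cy5 over Cy3 is likely rather than stated, and for the log base nothing was found in the sources used here. The same dye marked induced cells on all 4 arrays, so a dye effect would be part of every value set against 0. No signal levels were used, so the identity of the line could not be checked against marker levels, and how far a spot lay above background is unknown. The labels number no repeat cultures for KMS12, so the 4 days are the only repeats and every p-value measures the spread between days. The platform annotation gave 1 symbol to 10169 of the 15246 probes, which left 9681 features, 4604 of them named genes.

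The 4 arrays differed in how far their values spread below 0. The share of probes with a log2 ratio below -3 was 11.3% on day 1, 19.1% on day 2, 5.98% on day 3 and 0.918% on day 4, while at most 0.0853% lay above 3 on any day. Days 1 and 2 thus passed the limit of 10% of probes beyond 3 that marks a wide array, as did 12 of all 40 arrays. The array medians were -0.231, -0.289, -0.113 and -0.035 from day 1 to day 4. With shCasp10-3 the share below -3 was 0.466% on day 2 and 0% on day 4. Results are therefore given by day, and for days 3 and 4 apart where they rest on the wide arrays.

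**Figure D1:**
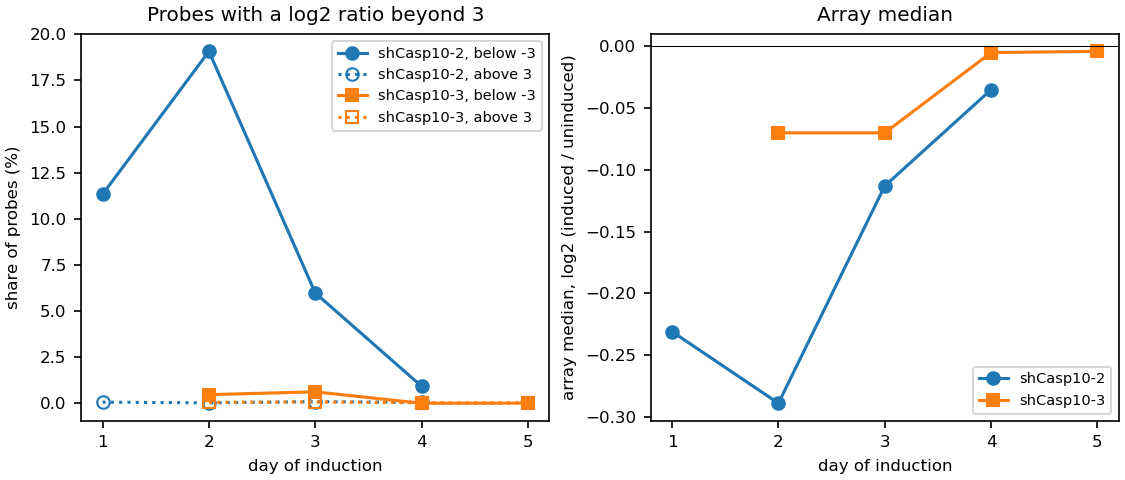
Spread of the KMS12 arrays by day of induction. Left, the share of probes (%) with a log2 ratio below -3 (filled symbols) or above 3 (open symbols); right, the median log2 ratio of each array; 1 point is 1 array, blue circles for shCasp10-2 and orange squares for shCasp10-3. The shCasp10-2 arrays of days 1 and 2 have 11.3% and 19.1% of probes below -3 and the lowest medians, and by day 4 the values are close to those with shCasp10-3.

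The low probes were partly the same from day to day. Of the 1726 probes below -3 on day 1, 66.6% were also below -3 on day 2, 33.3% on day 3 and 5.39% on day 4. On at least 1 day 3592 probes (23.6%) were below -3, and 41 probes were so on all 4 days. The 2908 low probes of day 2 had a median of -0.445 on the day 2 array of shCasp10-3, and of 0.20 on its day 4 array. In H929 with the same hairpin, 71.1% of them were also below -3 on day 2 of repeat 1, an array on which 25.0% of all probes were below -3. Pearson's r over all probes lay between 0.22 and 0.56 for the 6 pairs of the 4 arrays, with a median of 0.44. With the shCasp10-3 arrays r lay between -0.21 and 0.37. Against all other arrays r ran from -0.47 to 0.57, so that some arrays of other courses were as similar as those of the same course, and it was under -0.3 in 29 of 144 pairs. The labels state the same dyes throughout and the direction was kept as deposited. These coefficients describe arrays that share probes and background, and no p-value was attached to them.

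Low gene means came with a larger spread between probes and, at the same time, with more frequent agreement in sign. Among the 2674 genes read by 2 or more probes, all probes had the same sign in 54.5%. The share was 74.2% for genes with a mean below -1 and 47.3% for those between -1 and 1. The groups were formed on the mean of the same probes, which alone makes equal signs more frequent for low means. For the 710 genes with a mean below -1 the median SD between the probes of a gene was 1.32, against 0.24 for the 1963 genes between -1 and 1. The number of probes that share the sign is given below beside the genes it bears on.

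CASP10, the gene that the hairpin targets, was below 0 on each day. Its mean over 6 probes was -0.96 on day 1, -0.76 on day 2, -0.51 on day 3 and -0.54 on day 4. The mean was lowest on day 1, when 1 probe was at -2.547, against -1.045 on day 2. Of the rest, probes at -1.02, -0.81 and -0.49 on day 1 were at -1.31, -1.50 and -0.90 on day 2. Others at -1.01 and 0.14 on day 1 were at -0.15 and 0.34. The order of days 1 and 2 thus differed between probes. The means of the non-wide arrays of days 3 and 4 were the closest to 0. The mean of -0.69 (SE 0.12, n = 4 days) did not pass the test of limma over all features (Benjamini-Hochberg adjusted p = 0.22). By probe, 5 of the 6 had a mean below 0, between -1.37 and -0.54, and the other had a mean of 0.27 and was above 0 on every day. Over the shCasp10-3 course, from day 2 to day 5, the values were -0.24, -0.39, -0.33 and -0.31, and these did not overlap with the shCasp10-2 values. The paired difference over days 2 to 4 was -0.28 (SE 0.17, limma adjusted p = 0.52) and did not pass the test. The CASP10 mean was thus below 0 on all 8 KMS12 arrays.

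**Figure D2:**
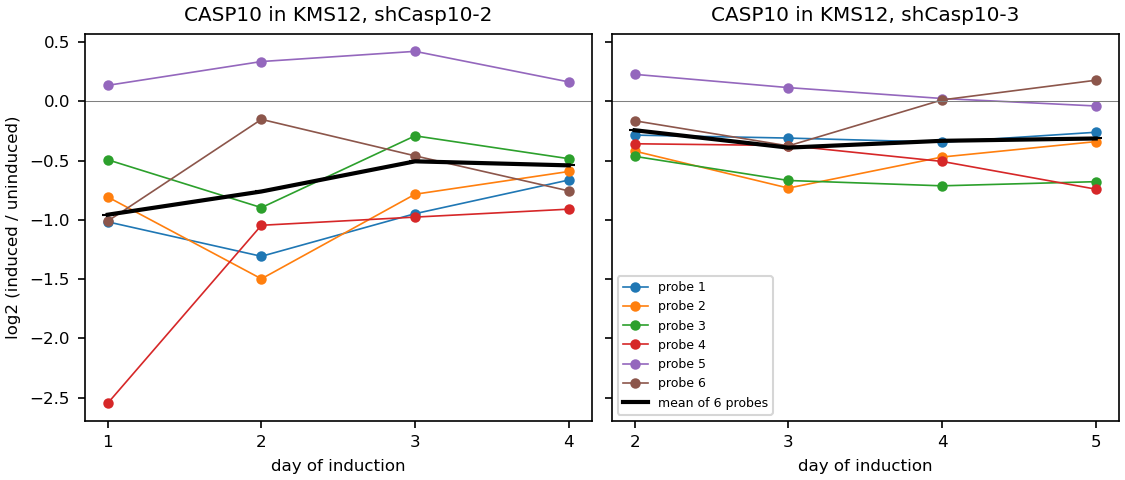
CASP10 in KMS12 by day of induction, log2 ratio of induced over uninduced cells. Thin lines are the 6 probes and the black line is their mean, with shCasp10-2 on the left and shCasp10-3 on the right. With shCasp10-2 the mean lies between -0.96 and -0.51 and 1 probe stays above 0 on all 4 days; with shCasp10-3 the mean lies between -0.39 and -0.24.

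FNIP1, KCNQ1 and EBF3 were the named genes called lower with shCasp10-2 over the 4 days, a call that depended on single days. FNIP1 encodes a partner of folliculin that binds AMP-activated kinase, KCNQ1 a voltage-gated potassium channel, and EBF3 a transcription factor of the early B cell factor family. Over all 9681 features limma called 10 (0.103%) at an adjusted p under 0.05, all of them lower, and 0 higher. At an unadjusted p under 0.05 there were 394 higher features (4.07%) and 1761 lower (18.2%). The other 7 called features are probes to which the annotation used here gives no single symbol.

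FNIP1 was -4.17, -3.69, -4.12 and -4.40 on days 1 to 4, a mean of -4.09 (SE 0.15, limma adjusted p = 0.025). Both of its probes had the same mean, -4.09 and -4.10. It was as low on day 4, when 0.918% of all probes were below -3, as on the wide arrays. With shCasp10-3 it was -0.48, -0.18, 0.03 and 0.15 on days 2 to 5, all above every shCasp10-2 value. KCNQ1, read by 1 probe, was -5.23, -4.66, -5.01 and -4.24 (mean -4.79, SE 0.20, limma adjusted p = 0.026), and with shCasp10-3 it lay between -0.11 and 0.25. EBF3, also read by 1 probe, was -6.41, -4.98, -5.18 and -5.36 (mean -5.48, SE 0.28, limma adjusted p = 0.046). Its shCasp10-3 values ran from -1.02 to 0.66.

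All 10 called features lay between -6.41 and -3.54 on every day of shCasp10-2. On days 4 and 5 of shCasp10-3 the same features lay between -0.65 and 0.53. On its earlier days 1 of them, a probe with no gene name here, was also low with shCasp10-3, at -4.86 on day 2 and -2.37 on day 3, and the other 9 lay between -1.02 and 0.66. None of the 10 passed the test between hairpins, which is paired over 3 days. The count rests on single days. It was 0 without day 1, day 2 or day 3 and 193 without day 4, of which 1 was higher and 192 lower. It was 0 without both wide arrays. With the spread taken from repeat courses of SKMM1 and H929, the FNIP1 value was -4.07 over days 2 to 4 and again 0 features passed.

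Beyond the called features, genes were named by a rule on the smallest p among those on 1 side of the array median on all 4 days. None of these lower and higher genes passed the adjusted test, and their limma adjusted p-values lay between 0.085 and 0.22. For scale, 3259 features (33.7%) were below 0 on all 4 days and 959 (9.91%) above.

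**Figure D3:**
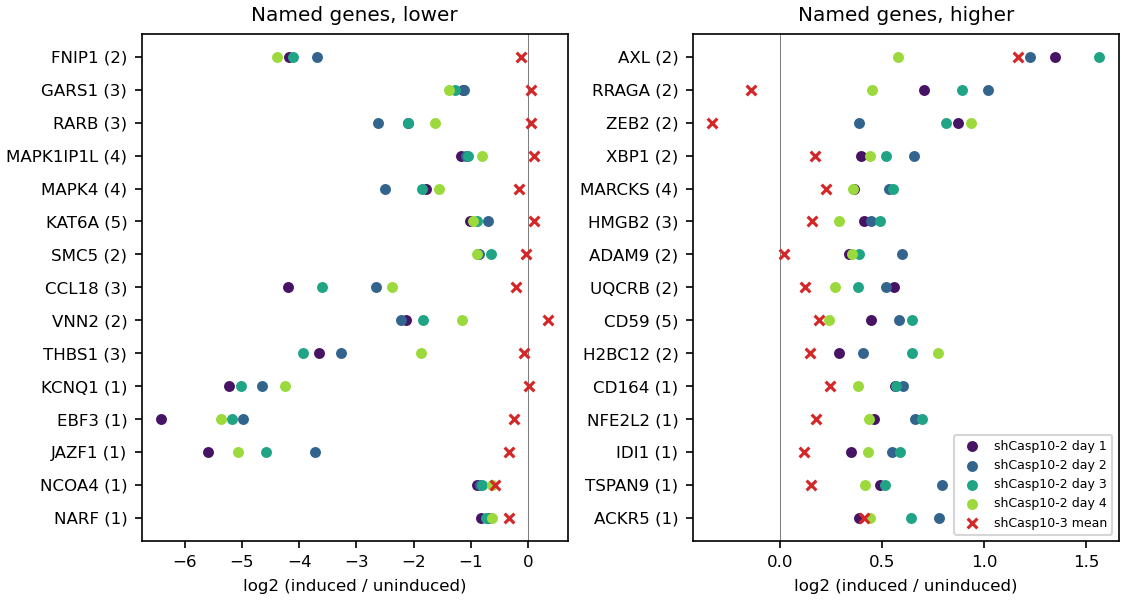
Genes named by the rule, lower on the left and higher on the right, with the number of probes in brackets. Coloured points are the 4 days of shCasp10-2 and the red cross is the mean of the 4 shCasp10-3 arrays, as log2 ratio of induced over uninduced cells. FNIP1, KCNQ1, EBF3 and JAZF1 lie at -3.69 or lower on every day with shCasp10-3 means between -0.33 and 0.02, while AXL and NCOA4 are on the same side with both hairpins.

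Among the lower genes read by several probes, RARB, the retinoic acid receptor beta, was -2.10, -2.63, -2.10 and -1.62. All 3 of its probes had means below 0, with single values from -6.31 on day 2 to -0.28 on day 4. MAPK4, an atypical MAP kinase, was -1.78, -2.50, -1.85 and -1.55. All 4 of its probes had means below 0, between -4.59 and -0.62, but on day 4 probes were also at 0.10 and 0.74. THBS1, which encodes the matrix protein thrombospondin 1, was -3.65, -3.27, -3.94 and -1.88, again with 3 of 3 probe means below 0. Of its probes 1 was at 0.66 on day 2 and another at 0.19 on day 4. The gene means of RARB, MAPK4 and THBS1 were each closest to 0 on day 4, as the arrays as a whole were. CCL18, a chemokine, showed -4.20, -2.66, -3.61 and -2.38 over 3 probes, all below 0. SMC5, a subunit of a complex that keeps chromosomes intact, was -0.87, -0.85, -0.65 and -0.88 and was closest to 0 on day 3. Its 2 probes differed by day, at -0.23, 0.68, -0.88 and -1.26 and at -1.515, -2.39, -0.41 and -0.50.

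GARS1, MAPK1IP1L, KAT6A and VNN2 had low means that came from 1 probe out of several. GARS1, the glycyl-tRNA synthetase, had a gene mean of -1.14, -1.11, -1.27 and -1.38 by day. Of its 3 probes 1 had a mean of -4.44 and the others had means of 0.38 and 0.39, so that the median of its probes was 0.33. MAPK1IP1L was -1.17, -1.09, -1.06 and -0.81, with 1 of 4 probes at -4.57 and the rest between -0.16 and 0.44. KAT6A, a histone acetyltransferase, was -1.01, -0.70, -0.88 and -0.95, with 1 of 5 probes at -4.33 and the rest between -0.23 and 0.18. VNN2 was -2.14, -2.22, -1.83 and -1.16, with 1 of 2 probes at -3.68 and the other at 0.00. In each of these genes the low probe lay far from its partners, and no direction for the transcript as a whole follows from the mean.

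Of the lower genes with 1 probe, JAZF1, a zinc finger protein, was -5.60, -3.73, -4.58 and -5.07. NCOA4 was closer to 0, at -0.88, -0.83, -0.81 and -0.63; it is the cargo receptor that carries ferritin to autophagosomes. Its shCasp10-3 values were -0.52, -0.54, -0.79 and -0.41, on the same side of 0. NARF was -0.82, -0.68, -0.74 and -0.62, and with shCasp10-3 it was below 0 on 3 of 4 days.

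On the higher side the values were smaller. AXL, a receptor tyrosine kinase that binds GAS6, had the highest mean of the named higher genes: 1.34, 1.23, 1.56 and 0.58 on days 1 to 4, a mean of 1.18 (SE 0.20). Its probes had means of 0.79 and 1.57. With shCasp10-3 it was 1.70, 1.00, 1.03 and 0.94 on days 2 to 5. AXL was therefore above 0.5 on all 8 KMS12 arrays, and the difference between hairpins was -0.12 (SE 0.30, limma adjusted p = 0.85).

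RRAGA, a Rag GTPase that brings mTORC1 to the lysosome, was 0.70, 1.02, 0.89 and 0.45. Its probes differed, with means of 0.04 and 1.49. With shCasp10-3 it was 0.09, -0.14, -0.39 and -0.13, below every shCasp10-2 value. MARCKS, a membrane-bound substrate of protein kinase C, was 0.36, 0.53, 0.55 and 0.35, and all 4 probes were above 0. CD59, which shields cells from complement, was 0.45, 0.58, 0.64 and 0.24 over 5 probes, all above 0.

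HMGB2, a chromatin protein, was 0.41, 0.45, 0.49 and 0.29, and the metalloprotease ADAM9 was 0.34, 0.60, 0.39 and 0.35. The histone gene H2BC12 was 0.29, 0.40, 0.65 and 0.77, with its highest value on day 4, when most of the named higher genes were at their lowest. For ZEB2, a repressor of E-cadherin, the means of its probes lay on either side of 0, at -0.60 and 2.10. Of the higher genes with 1 probe, CD164 was 0.56, 0.60, 0.56 and 0.38. NFE2L2, the transcription factor of the antioxidant response, was 0.46, 0.66, 0.69 and 0.43. TSPAN9 and ACKR5 had means of 0.55 and 0.56.

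XBP1 joins the named genes to the pathways that plasma cells depend on. It encodes the transcription factor that IRE1 activates by splicing when proteins misfold in the endoplasmic reticulum, and it is required for plasma cells. It was 0.40, 0.66, 0.52 and 0.44 on days 1 to 4, a mean of 0.50 (SE 0.09, limma adjusted p = 0.22), and its probes had means of 0.47 and 0.53. All 4 days were similar, wide arrays or not. With shCasp10-3 it was 0.39 and 0.32 on days 2 and 3 and -0.04 and 0.00 on days 4 and 5. SEL1L, part of the machinery that removes misfolded proteins, was 0.51, 0.26, 0.43 and 0.41 on days 1 to 4 with 1 probe.

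The promoter of XBP1 is shown because it holds the endoplasmic reticulum stress element, the site at which the unfolded protein response acts on its targets. The stretch covers the 150 bases before the annotated start, chr22:28800570-28800719 on the minus strand (RefSeq, GRCh38.p14), with the fixed letters of the element in capitals.
XBP1: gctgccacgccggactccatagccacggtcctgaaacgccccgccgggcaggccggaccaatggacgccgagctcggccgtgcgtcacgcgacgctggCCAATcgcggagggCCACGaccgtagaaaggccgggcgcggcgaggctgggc
The element searched was CCAAT and CCACG with 9 bases of any kind between them, on both strands, in windows from 250 bases before to 50 after each start. It was in 27 of 35116 windows (0.0769%). Of the 17 measured genes of the unfolded protein response 16 had a window and 6 held it. The matches of the other holders are set beside that of XBP1 because the genes share the element while their values differed; HSP90B1 held 2:
XBP1: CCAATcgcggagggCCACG
HSPA5: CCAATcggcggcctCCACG
HSP90B1: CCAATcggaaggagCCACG
HSP90B1: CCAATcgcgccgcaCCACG
CALR: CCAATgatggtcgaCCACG
CANX: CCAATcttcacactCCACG
CRELD2: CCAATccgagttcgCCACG
HSP90B1, the chaperone GRP94, was above 0 on all 4 days, at 0.42, 0.28, 0.17 and 0.09. HSPA5, the chaperone BiP, was 0.47 on day 1 and then 0.06, 0.04 and 0.01. CALR, calreticulin, was 0.13, -0.08, -0.05 and -0.09. CANX, calnexin, was -0.01, -0.26, 0.82 and -0.08 with 1 probe. CRELD2 was -0.52, -0.63, -0.14 and -0.11 with 1 probe. Genes with the element thus lay above, near and below 0. XBP1, HSP90B1 and HSPA5 were above 0 on every day, and by day 4 HSP90B1 and HSPA5 were under 0.1. A match of letters is a description of the window only.

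Over the whole list of the unfolded protein response, 5 of 17 measured genes were above 0 on all 4 days and 4 were below, with a median of -0.02. The background is 9.91% of features above and 33.7% below, and a median of -0.26 over all features. DNAJB9, a target of spliced XBP1, was 0.04, 0.28, 0.59 and 0.06. EDEM1, with 1 probe, was -5.58 and -5.34 on the wide arrays, -0.94 on day 3 and 0.53 on day 4. No member of any of the 32 lists passed the adjusted test, so the lists below are given by counts and medians, and no set test was run.

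**Figure D4:**
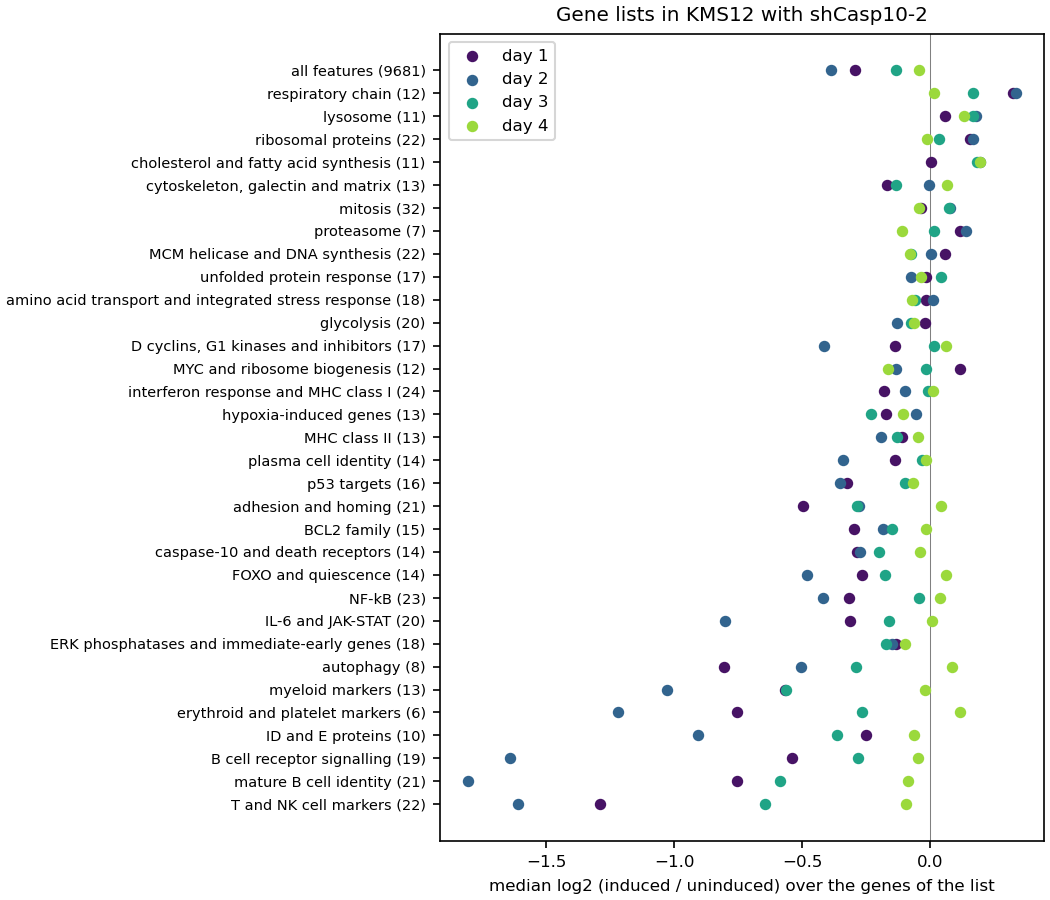
Median log2 ratio over the measured genes of each list on each day of shCasp10-2 in KMS12, with the number of measured genes in brackets and all features in the top line. The medians of lymphoid marker lists lie far below 0 on days 1 and 2 and near 0 on day 4, and those of the respiratory chain and lysosome are above 0 on all 4 days.

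The lists of the respiratory chain and of ribosomal proteins had medians above that of all features. In the respiratory chain 5 of 12 measured genes were above 0 on all 4 days and 0 were below (9.91% and 33.7% of all features). The list median went from 0.32 on day 1 to 0.02 on day 4. UQCRC2 and UQCRB, subunits of complex III, were 0.39, 0.71, 0.67 and 0.30, and 0.56, 0.52, 0.38 and 0.27. ATP5F1B, the catalytic subunit of the ATP synthase, was 0.38, 0.53, 0.26 and 0.04. With shCasp10-3 the list median was -0.11. Of the 22 ribosomal and translation genes 7 were above 0 on all 4 days and 4 below. EEF1A1, the elongation factor that delivers tRNAs to the ribosome, was 0.38, 0.40, 0.25 and 0.16, with 9 of 9 probes above 0.

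Sterol synthesis genes were above 0 in part. Of 11 measured genes of cholesterol and fatty acid synthesis 5 were above 0 on all 4 days and 1 was below. Of all features 9.91% were above and 33.7% below. IDI1, which makes the isoprenoid building block dimethylallyl diphosphate, was 0.35, 0.55, 0.58 and 0.43. SQLE, squalene epoxidase, was 0.23, 0.55, 0.37 and 0.28, and INSIG1, the sterol-sensing anchor of SREBP, was 0.23, 0.62, 0.40 and 0.38. SC5D and FADS1 were the other genes above 0 on every day. FDPS, an enzyme of the same pathway, went the other way with 1 probe at -1.06, -2.42, -0.51 and -0.23. This was one of the lists whose median on day 4, 0.19, was no closer to 0 than on day 1.

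Lysosomal genes gave 5 of 11 above 0 on all 4 days and 2 below (9.91% and 33.7% of all features). CTSB, the cysteine protease cathepsin B, was 0.15, 0.35, 0.52 and 0.39, with 8 of 8 probes above 0. LAMP1, a protein of the lysosomal membrane, was 0.18, 0.11, 0.41 and 0.29, and the carboxypeptidase CTSA was 0.03, 0.25, 0.57 and 0.68. CTSL, another cysteine protease, was below 0 on all days at -1.12, -1.26, -0.15 and -0.15. The list median was 0.14, and it was -0.09 with shCasp10-3.

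Autophagy genes were measured for 8 of 29 list members. None was above 0 on all 4 days and 2 were below (9.91% and 33.7% of all features). PIK3C3, the lipid kinase that starts the autophagosome, was -3.20, -2.68, -1.12 and -1.15, with 4 of 4 probes below 0. ATG5, which conjugates LC3 to the membrane, was -1.43, -1.10, -0.44 and -0.69 with 1 probe. On day 4 the list median was 0.09, against -0.80 on day 1.

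In the death receptor list, 8 of 14 measured genes were below 0 on all 4 days and 3 above (33.7% and 9.91% of all features). Relative to the array medians 4 of the 14 were below on all 4 days and 4 above (23% and 18.5% of all features). FADD, the adaptor that recruits caspase-8 and caspase-10, was -0.21, -0.22, -0.36 and -0.21. On days 1 and 2 this was above the array medians of -0.231 and -0.289. CASP8 was -0.34, -0.27, -0.12 and -0.10 with 3 of 3 probes below 0. FAS, a death receptor, was 0.21, 0.11, 0.20 and 0.18. XIAP, an inhibitor of caspases, was -1.08, -5.57, -2.32 and -0.68 with 1 probe. In the BCL2 family 7 of 15 were below 0 on all 4 days and 1, MCL1, was above, at 0.08, 0.08, 0.21 and 0.15 over 6 probes. Relative to the array medians 5 of the 15 were below on all 4 days and 6 above. BCL2 itself, the inhibitor of apoptosis, was -0.52, -1.98, -1.03 and -0.33 with 7 of 7 probes below 0. BCL2L10 was -4.56, -4.51, -4.18 and -1.70 with 1 probe.

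In glycolysis 7 of 20 genes were below 0 on all 4 days and 1 above, a share below 0 close to the background of 33.7%. PKM, pyruvate kinase, was -0.18, -0.48, -0.31 and -0.52 and PDK1 was -0.38, -0.49, -0.56 and -0.20. With shCasp10-3 the list had 10 of 20 below 0 on all 4 days and 0 above (19.7% and 11.1% of all features), with a median of -0.25 against -0.06 with shCasp10-2. Of 13 hypoxia genes 3 were below 0 on all 4 days and 1 above, and the list median of -0.10 was above the -0.26 of all features. Among its members SIAH2 and BNIP3L had all their probes below 0. SIAH2, a ubiquitin ligase, was -1.46, -0.90, -0.73 and -0.59, and BNIP3L, a receptor for the removal of mitochondria, had a mean of -1.29.

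Mitosis genes lay on both sides, with 8 of 32 above 0 on all 4 days and 5 below (9.91% and 33.7% of all features). HMMR, a spindle protein, was 0.28, 0.82, 0.37 and 0.13 and cyclin A2, CCNA2, was 0.25, 0.41, 0.43 and 0.29. NEK2, a centrosomal kinase, was -2.67, -2.27, -2.27 and -0.52 with 1 of 2 probes below 0. MKI67, the Ki-67 proliferation marker, was -0.73, -0.64, -0.75 and -0.37 with 4 of 8 probes below 0. In the G1 list CDK6 was -1.41, -1.33, -2.21 and -0.35 with 6 of 6 probes below 0.

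Among genes of plasma cell identity 5 of 14 were below 0 on all 4 days and 3 above. The share below, 35.7%, was close to the 33.7% of all features, of which 9.91% were above. IRF4, the transcription factor on which myeloma cells depend, was -0.14, -0.21, -0.40 and -0.43, with 4 of 4 probes below 0. Its value was farthest from 0 on days 3 and 4, the opposite order to that of the arrays. On days 1 and 2 IRF4 was above the array medians of -0.231 and -0.289. On days 3 and 4 it was below those of -0.113 and -0.035. TNFRSF17, which encodes the antigen BCMA, was -0.20, -0.29, -0.20 and -0.45. The surface marker CD38 was 0.09, 0.19, 0.27 and 0.08, and PIM2, a kinase of myeloma cells, was 0.09, 0.00, 0.40 and 0.56. With shCasp10-3 IRF4 had a mean of 0.03.

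The lowest list medians over the 4 days were those of T and NK cell markers, -1.15, and of mature B cell genes, -0.74. Of the 22 measured T and NK cell markers 13 were below 0 on all 4 days and 1 above, and the list median was -1.29, -1.61, -0.65 and -0.09 from day 1 to day 4. CD3D, a chain of the T cell receptor complex, was -0.96, -1.82, -2.11 and -1.39 and CD6 was -2.73, -4.61, -2.90 and -1.61. The cytotoxic protease GZMA was -3.15, -4.67, -1.61 and -0.19. Both CD3D and CD6 had all probes below 0, and both were at -1.39 or lower on day 4. The myeloid list had 7 of 13 below 0 on all 4 days and 0 above, and the erythroid and platelet list 2 of 6 below and 1 above. Of all features 33.7% were below and 9.91% above, so the erythroid and platelet share below, 33.3%, was close to the background.

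Mature B cell genes, which plasma cells have largely switched off, gave 16 of 21 below 0 on all 4 days and 1 above. Of all features 33.7% were below and 9.91% above. The 2 members with the smallest p, MS4A1 and CD79A, had probes on both sides of 0. MS4A1 was -0.90, -0.88, -0.56 and -0.64, with 4 of 5 probes below 0. CD79A was -0.75, -1.70, -1.70 and -1.09, with 1 of 3 probes below 0 and probe means from -4.16 to 0.13. PAX5, the B cell master regulator, was -3.56, -3.87, -2.33 and -0.71, with 7 of 7 probes below 0. EBF1 was -2.42, -3.86, -2.74 and -0.62 with 8 of 8 probes below 0. CD37 was the exception, at 0.28, 0.13, 0.31 and 0.39. CIITA, the activator of MHC class II genes, was named from the MHC class II list. It was -2.42, -2.86, -0.98 and -0.62, with 9 of 11 probes below 0 and probe means from -5.75 to 0.29. In the MHC class II list 6 of 13 were below 0 on all 4 days and 2 above, with a median of -0.14 against -0.26 for all features. Relative to the array medians 3 of the 13 were below on all 4 days and 2 above (23% and 18.5% of all features). In B cell receptor signalling 10 of 19 were below 0 on all 4 days, among them SYK at -2.37, -2.69, -1.03 and -0.14 with 9 of 9 probes below 0. The 2 members of that list with the smallest p were MALT1 and BLK. MALT1 was -1.41, -1.33, -1.27 and -0.30 with 1 of 2 probes below 0. BLK was -1.11, -2.54, -0.91 and -0.79 with 4 of 5 probes below 0. The mature B list median was -0.75, -1.81, -0.59 and -0.09 by day, and with shCasp10-3 its median was -0.08.

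The marker lists and the low tail of the arrays moved together over the 4 days, and their part in the other results was not tested. Both channels held cells of 1 established line, so these ratios are not read as numbers of T, NK, myeloid or B cells. Without signal levels it is unknown whether the line expressed these genes. Relative to the array medians the background is 2222 features (23%) below on all 4 days and 1791 (18.5%) above. On this scale the T and NK list had 10 of 22 below and the mature B list 12 of 21. On days 3 and 4 alone the medians were -0.51 for T and NK markers and -0.39 for mature B genes, against -0.10 for all features.

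For the change with day, limma called 0 features (812, or 8.39%, at an unadjusted p under 0.05, of which 792, or 8.18%, upward). The upward genes with the smallest p among those with 2 or more probes were very low on the wide arrays. CBL, a ubiquitin ligase, went -5.31, -3.30, -1.46 and -0.10, PAN3 went -4.91, -3.52, -1.74 and 0.36, and ISCU, the iron-sulfur scaffold, went from -3.30 on day 1 to 0.27 on day 4, a slope of 1.19 per day. Downward, IL1RN, the interleukin-1 receptor antagonist, went -0.35, -0.90, -1.77 and -1.78, and TFRC, the transferrin receptor, went 1.03, 0.43, 0.30 and 0.14. Downward slopes were the rarer kind, with 20 features (0.207%) at an unadjusted p under 0.05. Limma adjusted p-values for these 5 genes lay between 0.51 and 0.61. IFI44, an interferon-induced gene read by 1 probe, also moved away from 0, at -2.16, -3.24, -4.32 and -5.29.

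The hairpins were compared over days 2 to 4, pairing days. Limma called 0 features in the difference (859, or 8.87%, at an unadjusted p under 0.05, with 160, or 1.65%, higher and 699, or 7.22%, lower with shCasp10-2). Among named genes with 2 or more probes, those with the smallest p on the lower side were FNIP1, PPIL4 and PELO. FNIP1 differed by -3.86 (SE 0.31, limma adjusted p = 0.50). With the days not paired and all days of each hairpin used, 27 features passed, all lower with shCasp10-2, and FNIP1 was among them. That fit also took in the wide shCasp10-2 array of day 1, so the count does not show the effect of pairing alone. PPIL4, a peptidyl-prolyl isomerase, had means of -3.20 with shCasp10-2 and -0.09 with shCasp10-3. PELO, a ribosome rescue factor, had -2.45 and -0.60, with all 6 probes below 0 with shCasp10-2. On the higher side, APTX, a DNA repair protein, was 0.17, 0.09 and 0.38 with shCasp10-2. Its shCasp10-3 values on the same days were -0.78, -0.96 and -0.61. RRAGA and VPS39 had differences of 0.94 and 0.90. The probes of RRAGA differed, as given above. Those of VPS39 had means of -0.57 and 0.14 over days 1 to 4, and its day 1 value, outside the days compared, was -2.61.

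The hairpins also shared genes on 1 side of 0. Below 0 on all 8 KMS12 arrays were 917 features (9.47%), which is 28.1% of those below 0 on all days with shCasp10-2 and 48.1% of those with shCasp10-3. Of all features 19.7% were below 0 on all days with shCasp10-3 and 33.7% with shCasp10-2. The medians of all 8 arrays were below 0. Above 0 on all 8 were 236 (2.44%), or 24.6% of those with shCasp10-2 and 21.95% of those with shCasp10-3. Of all features 11.1% were above 0 on all days with shCasp10-3 and 9.91% with shCasp10-2. On opposite sides, 180 features (1.86%) were below 0 on all days with shCasp10-2 and above on all with shCasp10-3, and 65 (0.671%) were the other way round. The wide low tail makes up part of the shCasp10-2 side, and each hairpin was read against its own uninduced cells. The genes given next are those with the largest smallest absolute value over the 8 arrays among genes with 2 or more probes, a rule set after the values were seen, so they are a description.

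**Figure D5:**
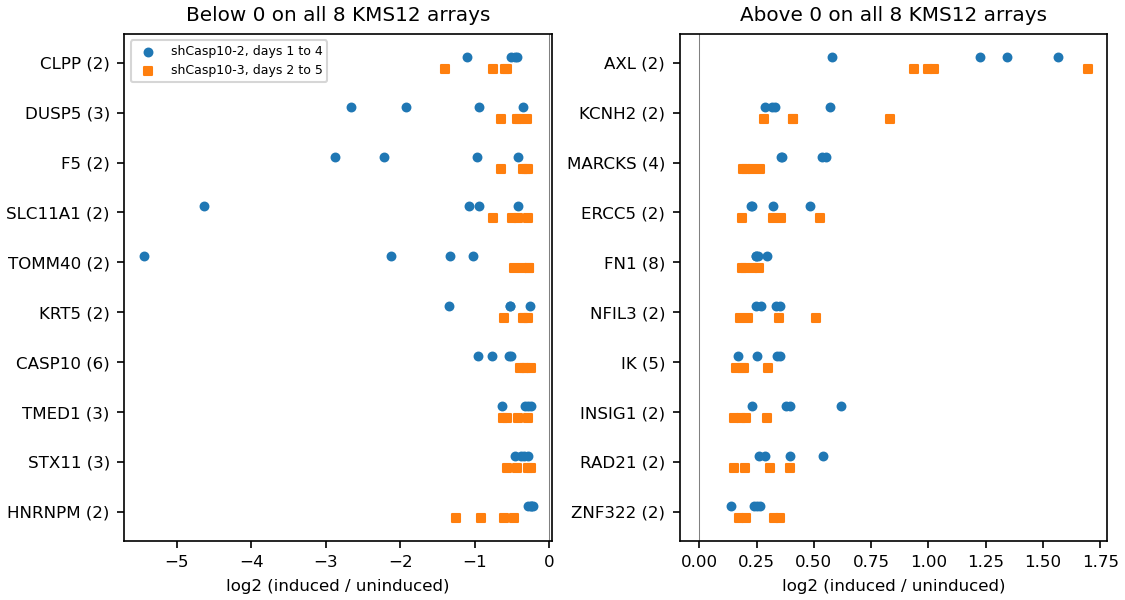
Genes on 1 side of 0 on all 8 KMS12 arrays, below on the left and above on the right, with the number of probes in brackets; blue circles are the 4 days of shCasp10-2, orange squares the 4 days of shCasp10-3, as log2 ratio of induced over uninduced cells. AXL lies highest of the genes above 0, and TOMM40, SLC11A1, F5 and DUSP5 reach lower values with shCasp10-2 than with shCasp10-3.

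Above 0 with both hairpins, next to AXL, KCNH2, a potassium channel, was 0.32, 0.57, 0.33 and 0.29 with shCasp10-2 and 0.28, 0.41, 0.41 and 0.83 with shCasp10-3. ERCC5, a DNA repair nuclease, was 0.23, 0.23, 0.48 and 0.32 and then 0.52, 0.36, 0.32 and 0.19. FN1, fibronectin, had 8 probes and means of 0.26 and 0.22. NFIL3, INSIG1 and RAD21, a cohesin subunit, had shCasp10-2 means of 0.30, 0.41 and 0.37 and shCasp10-3 means of 0.31, 0.21 and 0.26.

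Below 0 with both, CASP10 was 1 of the 10 genes that this rule gave. CLPP, the mitochondrial protease, was -0.44, -1.10, -0.52 and -0.46 with shCasp10-2 and -0.57, -0.75, -1.40 and -0.59 with shCasp10-3. DUSP5, a phosphatase of ERK, was -2.66, -1.93, -0.94 and -0.34, and then -0.29, -0.65, -0.44 and -0.41. Its low shCasp10-2 mean came largely from 1 of 3 probes, at -4.03, and the median of its probes gave a mean of -0.37. STX11, a SNARE protein, was -0.29, -0.46, -0.33 and -0.37 and then -0.24, -0.43, -0.57 and -0.29, ranges that overlap and all 3 of its probes below 0. HNRNPM, a splicing factor, was lower with shCasp10-3, with a mean of -0.81 against -0.25.

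Set against the same hairpin in H929, over days 1 to 4 with the 7 H929 arrays of those days averaged by day, limma called 0 features (345, or 3.56%, at an unadjusted p under 0.05, of which 286, or 2.95%, lower in KMS12). FNIP1 had a mean of -4.09 in KMS12 and -0.93 in H929, a difference of -3.17 (SE 0.53, limma adjusted p = 0.84). AXL had means of 1.18 and 0.10. The chemokine CCL20 had -2.48 and -1.24. The H929 means include the only H929 array of day 1, a wide one with a median of -2.145 and 46.3% of probes below -3. They also include day 2 of repeat 1, with 25.0% of probes below -3. CASP10 had means of -0.69 and -1.96, a difference of 1.27 (SE 1.01). Without the wide arrays of either line the CASP10 difference was -0.25, on the other side of 0.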

How the data were processed

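Total RNA (50 µg per dye, per the labels) was hybridised to 2-colour lymphochip arrays, and the authors deposited 1 log ratio per probe, here read as log2. How background was corrected and arrays were normalised is not given in the sources used here, and no scanner intensities were used. With 15246 probes and 0 missing values, probes with 1 symbol in the platform annotation were averaged by gene (10128 were matched by Entrez identifier to current RefSeq names, and 0 symbols changed); 4 probes with several symbols and 5073 not listed were kept singly. Values were left uncentred. limma 3.58.1 (R 4.3.3) tested each feature's mean over the 4 arrays against 0, the slope with day, the difference from shCasp10-3 paired by day (3 days), and the difference from H929 paired by day; Benjamini-Hochberg adjustment ran over all 9681 features. The fit was tested on simulated data.

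Named genes were CASP10; among genes on 1 side of the array median on all 4 days with a deposited mean on that side, the 10 with 2 or more probes and the 5 with 1 probe of smallest p in each direction; the 2 of smallest p in each of 32 lists; and the 3 of smallest p in each direction, among genes with 2 or more probes, for slope and differences. Other list members were chosen for their role after their values were seen. The members and lists were chosen with earlier results of these data known. The number of arrays, 1 per day, limits the precision. Alternatives were centring, scaling, probe summary, array weights, leaving out days or wide arrays, spread from repeat courses, 1 fit of all arrays, and unpaired days.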

Additional observations from a re-analysis of the deposited data

Results flagged for a closer look

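SMC5 on day 3, at -0.65, lay apart from the other 3 days of shCasp10-2, with a gap of 0.88 of the range of the 4 values; chance gives such a gap in about 1 of 20 groups. The day 2 mean joined probes at 0.68 and -2.39, so the spread of the 4 means does not show that of the probes. For GARS1, MAPK1IP1L and KAT6A every shCasp10-2 array was below 0 and every shCasp10-3 array above 0. The differences between the hairpins over days 2 to 4 were -1.30 for GARS1, -1.10 for MAPK1IP1L and -0.90 for KAT6A, and none passed the limma test (adjusted p = 0.50 for each). Each of these means holds 1 probe at -4.44, -4.57 and -4.33 in that order, while the other probes of the 3 genes lay between -0.23 and 0.44.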

How the results depend on the processing

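The 10 features called in the response became 12 with each array centred on its median, 13 with each probe fitted on its own and 8 with the median of a gene's probes. The count was 0 without the wide arrays, 0 with arrays scaled by the median absolute deviation, 0 with course means and the spread of repeat courses, and 1 among features read by 2 or more probes. It was 36 with limma array weights (4 higher, 32 lower) and 50 with all arrays against uninduced cells in 1 fit (2 higher, 48 lower), which kept 4 of the 10. Leaving out 1 day gave counts between 0 and 193. For the hairpin difference, the fit without the replicate block, days not paired, called 27 features in place of 0. That fit used all days of both hairpins and not only the shared days, so the pairing was not the only change. Every other setting run for slope, hairpins and H929 kept 0 calls; the slope without the wide arrays could not be fitted. GARS1 turned to 0.33 and TCF12 to 0.078 with the median of their probes, and PSMB1 to 0.024 without the wide arrays. In the H929 difference CASP10 turned to -0.25 without the wide arrays and to -0.52 against repeat 2, and TMEM131L to 0.51 against repeat 1. Over 11 alternatives other than scaling the CASP10 mean lay between -0.78 and -0.52. Signal over background is unknown, so no floor can be set under the values below -3.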

Other observations

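Adhesion and chemokine receptor genes gave 8 of 21 measured members below 0 on all 4 days and 1 above, or 38.1% below against 33.7% of all features. CCR7, the receptor that guides cells to lymph nodes, was -1.64, -3.61, -1.65 and -1.42, with 4 of 4 probes below 0. VIM, vimentin, was -1.85, -2.78, -2.21 and -0.83 with 3 of 4 probes below 0, while its mean with shCasp10-3 was 0.13. In the MYC list 3 of 12 were below 0 on all 4 days and 2 above, with a median of -0.07 against -0.26 for all features. Of its members MAX, the partner of MYC on DNA, was -0.67, -0.53, -0.33 and -0.36 and EIF4E, the cap-binding protein, was -0.22, -0.39, -0.13 and -0.33, with 5 of 5 and 4 of 4 probes below 0. CCNG1, a p53 target read by 1 probe, was 0.26, 0.67, 0.65 and 0.35, while the p53 targets had 9 of 16 below 0 on all 4 days. None of these passed the limma test, with adjusted p = 0.22 for each gene named.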
